A study of Danio rerio with 8 samples.

Results

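Integrins are cell surface receptors made of 1 alpha and 1 beta subunit, and the 35 genes whose symbols name an integrin alpha or beta subunit were followed here in kdrl-positive cells of zebrafish embryos. They were taken by symbol alone from a table of 31901 Ensembl genes, leaving out the genes of integrin-binding proteins. The cells came from sf3b1 mutants (4 libraries) and their siblings (4 libraries), all at 28 hours post fertilization, and total RNA depleted of ribosomal RNA was sequenced. The product of sf3b1 is part of the U2 snRNP, which recognises intron branch points during splicing, and kdrl encodes a VEGF receptor of endothelium. Which sf3b1 allele the mutants carried, whether the siblings were wild type or heterozygous, and how many embryos went into a library are not stated in the labels. Nor is it stated that replicates came from separate clutches, so the spread that the p-values rest on is that between these libraries and may be technical.

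Integrins hold cells to the extracellular matrix and to each other, and signal in both directions across the membrane. The alpha subunit largely sets the ligand, which can be fibronectin or vitronectin through an RGD motif, laminin, collagen, or a receptor on another cell, while the beta subunit binds talin and kindlin inside the cell. In vessels, integrins with the beta1 or alpha v chain anchor endothelium to basement membrane and to provisional matrix. The beta2 and beta7 integrins are known from leukocytes, and the pair of alpha IIb and beta3 is the fibrinogen receptor of thrombocytes, the nucleated cells that do the work of platelets in fish. The zebrafish alpha IIb gene, itga2b, is also a marker of thrombocytes and blood progenitors.

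Of the 35 genes, 34 name a subunit. The other, ITGBL1, matches the symbol pattern but encodes a related protein that is no receptor chain, and it held at most 5 counts in any library. By what is known of where each subunit acts, 17 identifiers were placed in an endothelial class, 7 in a leukocyte class, 3 in a thrombocyte class and 7 in a class of muscle, epithelial, mesenchymal and neural integrins. Several symbols are shared by paralogues, among them the 4 identifiers of ITGB1 and the 2 of ITGB3, and each identifier is given on its own. Reads that match more than 1 paralogue may have been split or dropped in counting, so values of such identifiers are uncertain. In total 31 of the 35 had enough counts to be tested.

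Libraries held 10035886 to 13277963 counts in mutants and 10307076 to 12237885 in siblings. SF3B1 (ENSDARG00000056138) itself stood at 151, 149.6, 188 and 162 CPM in mutants, against 313, 212, 311 and 354 CPM in siblings, without overlap. By the quasi-likelihood F test of edgeR, Benjamini-Hochberg adjusted over all genes tested, its log2 fold change was -0.87 ± 0.17 with an adjusted p of 0.00168. CPM are count rates relative to the TMM-scaled size of each library, a log2 fold change is that of mutant over sibling with its SE, and every adjusted p below comes from the same test. kdrl stood at 689.8 to 1625 CPM in mutants and 628 to 1064 CPM in siblings, and cdh5, of endothelial junctions, at 511 to 1008 and 588 to 1097 CPM, so both defining endothelial transcripts were present in every library. Neither passed (log2 fold change 0.50 ± 0.24 for kdrl and -0.05 ± 0.24 for cdh5), though kdrl passed under 2 of the 17 alternative settings described next. An earlier analysis of these data set mutant replicate 4 and sibling replicate 2 apart from the rest. Results that change without both of them are given below. Calls were repeated under 17 alternative settings, among them other scalings, filters and tools and the loss of each library in turn.

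Integrin genes did not move as one group. Among 31 tested, 3 were higher in mutants (ITGAV and 2 identifiers of ITGB1), 7 were lower (ITGA1, ITGA6, ITGB4, itgam.1, itgae.2, itgb7 and itga2b) and 21 did not pass an adjusted p of 0.05. That is 32.3% of the members, where 21.3% of all 18289 genes tested passed (9.92% higher and 11.4% lower). The groups did not overlap in 9 of the 31, against 26.7% of all genes. The share of each library held by the 35 genes was 0.103% to 0.156% of counts in mutants and 0.110% to 0.162% in siblings, so the integrin total lay in the same range.

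**Figure D1:**
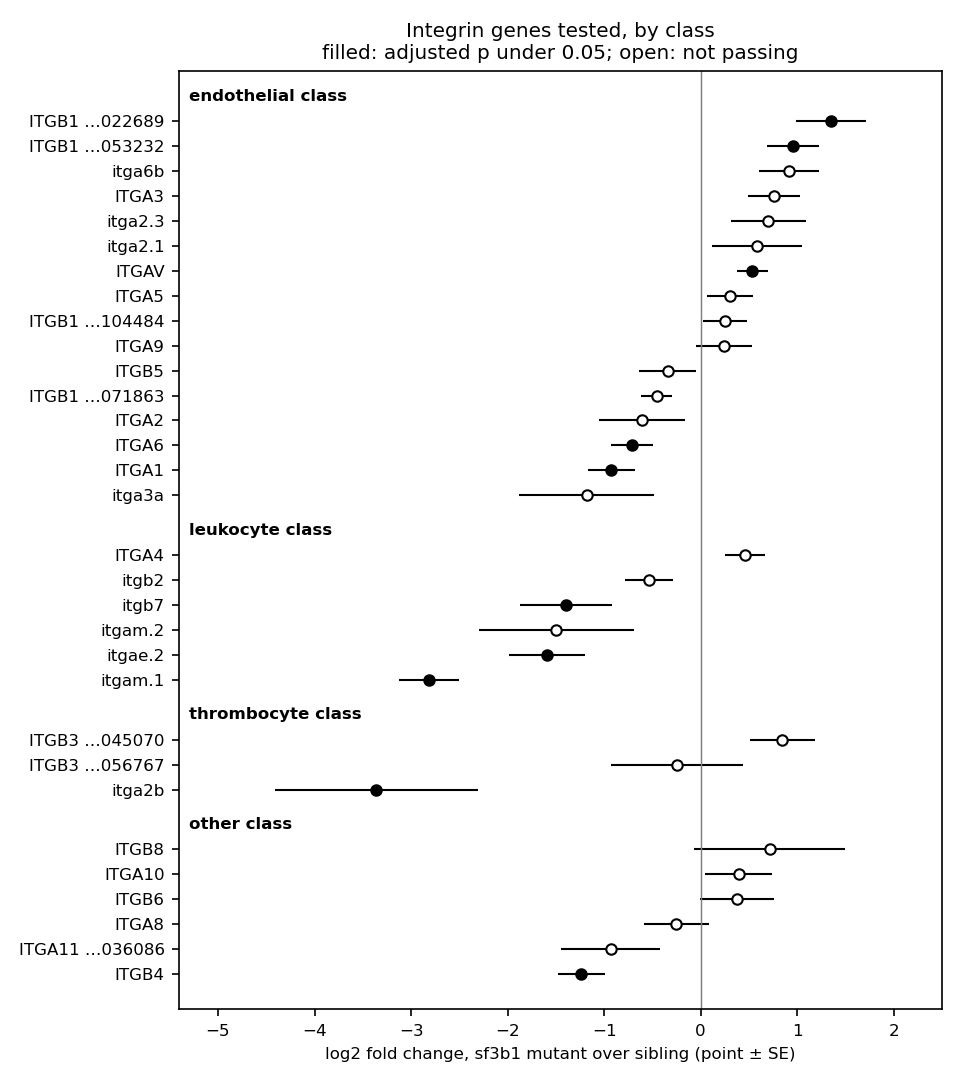
Log2 fold change of mutant over sibling (x axis, with SE) for the 31 integrin genes tested, grouped by class and ordered within it; filled points have an adjusted p under 0.05. The endothelial class spreads to both sides of 0 (median 0.28), while 5 of the 6 leukocyte genes lie below it (median -1.45).

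By class, the median log2 fold change was 0.28 over 16 endothelial genes (3 higher, 2 lower), -1.45 over 6 leukocyte genes (0 higher, 3 lower), -0.24 over 3 thrombocyte genes (0 higher, 1 lower) and 0.06 over 6 genes of the remaining class (0 higher, 1 lower). In that order of classes, 31.2%, 50%, 33.3% and 16.7% of the genes tested were called. All genes tested had a median of -0.00040, and 21.3% of them were called. The difference between classes is given as counts and medians and was not tested. The median of the thrombocyte class rests on 3 genes and is that of itga2b alone, -3.36, where ITGB3 is counted as endothelial. On leaving out single libraries the medians ran from 0.15 (without mutant replicate 4) to 0.50 (without sibling replicate 4) for the endothelial class, from -1.63 to -1.17 for the leukocyte class, from -0.42 to 0.036 for the thrombocyte class, which turned without mutant replicate 1, and from -0.34 to 0.074 for the remaining class. Without both libraries that stood apart, the endothelial median was 0.018.

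Among chains of the fibronectin and vitronectin receptors of endothelium, ITGAV and 2 of the 4 identifiers of ITGB1 rose. The other 2 ITGB1 identifiers did not pass, and nor did ITGA5 and ITGB5. ITGA9, grouped by ligand with ITGA4, did not pass either. ITGAV (ENSDARG00000006314), the alpha v chain, stood at 91.8, 96.3, 95.7 and 92.5 CPM in mutant replicates 1 to 4, against 65.8, 51.2, 73.7 and 69.3 CPM in siblings. Every mutant library lay above every sibling library, and the mutants were closer to each other than the siblings were. The rise was 1.45-fold (log2 fold change 0.53 ± 0.16 with an adjusted p of 0.0277), but the call was lost on leaving out any of 5 single libraries (log2 fold change 0.42 to 0.54 in those) and without both libraries that stood apart.

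ITGB1 encodes the beta1 chain, which pairs with most alpha subunits. Its identifier ENSDARG00000022689 stood at 14.8, 8.79, 26.6 and 18.4 CPM in mutants, against 4.91, 6.96, 7.10 and 7.79 CPM in siblings, and the groups did not overlap (log2 fold change 1.35 ± 0.36 with an adjusted p of 0.0149). A second identifier, ENSDARG00000053232, stood at 32.7, 39.2, 30.7 and 59.1 CPM in mutants, against 29.0, 14.5, 17.9 and 21.8 CPM in siblings, again without overlap (log2 fold change 0.96 ± 0.27 with an adjusted p of 0.0209). Leaving out mutant replicate 3 ended the first call (log2 fold change 1.06), and leaving out mutant replicate 4, sibling replicate 2 or sibling replicate 3 ended the second (0.72 to 0.89), as did leaving out both libraries that stood apart (0.57).

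The other ITGB1 identifiers did not pass. ENSDARG00000104484 had 239, 289, 425 and 408 CPM in mutants, against 231, 198, 322 and 393 CPM in siblings (log2 fold change 0.25 ± 0.23 with an adjusted p of 0.506), and without both libraries that stood apart its log2 fold change was -0.00147. It was lowest in mutant replicate 1 and in sibling replicate 2, and the spread within each group exceeded the difference between them. ENSDARG00000071863 had 145, 148, 159 and 172 CPM in mutants, against 187, 271, 169 and 228 CPM in siblings (log2 fold change -0.45 ± 0.16 with an adjusted p of 0.0597), and it passed, at -0.55, without sibling replicate 3. Summed over the 4 identifiers, ITGB1 counts were 432 to 658 CPM in mutant libraries, against 452 to 651 CPM in sibling libraries, so the ranges overlapped nearly in full.

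ITGA5, the alpha5 chain of the fibronectin receptor, stood at a mean of 147 ± 48.5 CPM in mutants, against 119 ± 33.6 CPM in siblings (SD, n = 4 each, log2 fold change 0.31 ± 0.24 with an adjusted p of 0.432). ITGA9, of a receptor for tenascin and VCAM1 known from lymphatic endothelium, stood at a mean of 73.1 ± 20.1 CPM in mutants, against 61.7 ± 27.4 CPM in siblings (log2 fold change 0.24 ± 0.29 with an adjusted p of 0.632), with -0.13 without both libraries that stood apart. ITGB5, a beta chain that pairs with alpha v, had a mean of 20.1 ± 7.61 CPM in mutants, against 25.4 ± 4.91 CPM in siblings (log2 fold change -0.34 ± 0.30 with an adjusted p of 0.481). In mutants, ITGA5 and ITGA9 were lowest in replicate 1 and highest in replicate 4, as was kdrl. The summed counts of the 18 endothelial marker identifiers were 3101 to 6137 CPM in mutant libraries, against 3146 to 5236 CPM in sibling libraries, and among the 17 tested flt1 (1.29 ± 0.29) and clec14a (0.93 ± 0.20) rose, and sox18 (-1.14 ± 0.21) and CLDN5 (ENSDARG00000043716, -0.60 ± 0.19) fell. The share called was 23.5%, near the 21.3% of all genes tested.

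**Figure D2:**
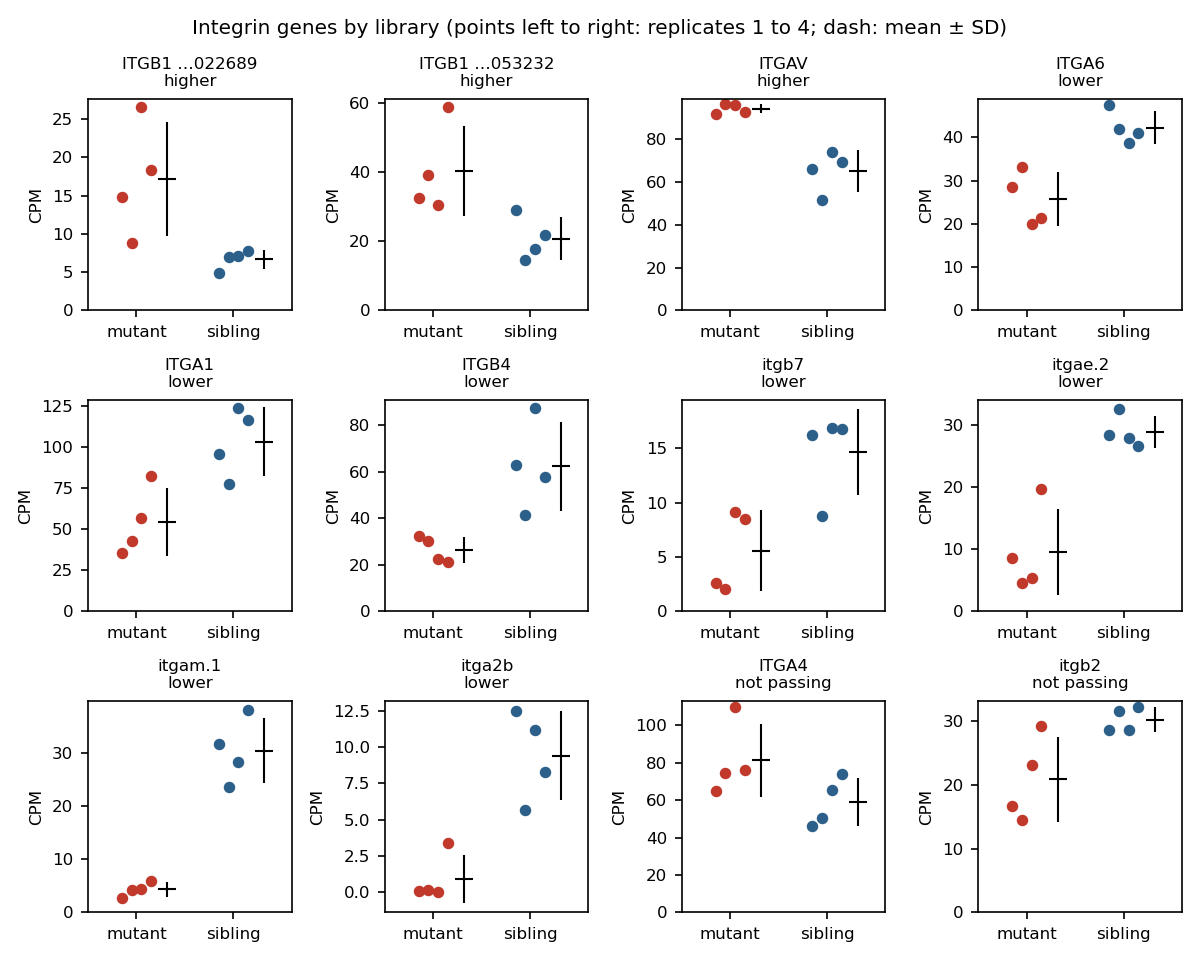
CPM (linear y axis) of the 10 integrin genes that passed and of ITGA4 and itgb2, with mutant libraries in red on the left and sibling libraries in blue on the right of each panel; points run from replicate 1 to 4 and the dash with its bar is the mean ± SD. itgam.1 is at 6.0 CPM or less in each mutant library and at 23.6 CPM or more in each sibling library, and itga2b exceeds 1 CPM in a single mutant library.

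Among the laminin receptor chains, ITGA6 and ITGB4 fell while the ITGA6 paralogue itga6b did not. ITGA6 (ENSDARG00000042282), the alpha6 chain of laminin receptors, stood at 28.6, 33.1, 19.9 and 21.4 CPM in mutants, against 47.5, 41.9, 38.7 and 40.9 CPM in siblings. All mutant libraries lay below all siblings, and ITGA6 fell to 0.611 of the sibling level (log2 fold change -0.71 ± 0.22 with an adjusted p of 0.0290). That call was lost without mutant replicates 3 or 4 or sibling replicates 1 or 4 (-0.73 to -0.61), and without both libraries that stood apart. Its paralogue itga6b (ENSDARG00000069946) had 36.6, 49.8, 39.6 and 76.7 CPM in mutants, against 22.1, 13.8, 32.5 and 39.1 CPM in siblings and just missed the threshold (log2 fold change 0.91 ± 0.31 with an adjusted p of 0.0504). It passed with RLE or upper-quartile factors, with no filter, with DESeq2, with limma-voom, and without mutant replicate 1 or sibling replicate 4 (0.92 to 1.15).

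ITGA3, whose alpha3 chain also binds laminin, had 69.3, 55.4, 30.3 and 57.0 CPM in mutants, against 37.1, 19.2, 37.4 and 31.6 CPM in siblings (log2 fold change 0.76 ± 0.27 with an adjusted p of 0.0591) and passed upward with upper-quartile factors, no filter, DESeq2 or without mutant replicate 3 (0.76 to 0.95). itga3a had 5.24, 4.96, 4.03 and 0.164 CPM in mutants, against 6.41, 5.25, 5.95 and 15.02 CPM in siblings, without overlap and without a call (log2 fold change -1.18 ± 0.70 with an adjusted p of 0.273). In siblings the value of itga3a in replicate 4 lay far above the others, and in mutants replicate 4 was lowest. A further relative, itga6l, had too few counts to be tested, at 0.19 to 0.96 CPM in mutants and 0 to 3.34 CPM in siblings.

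ITGB4 (ENSDARG00000028507), the beta4 chain that joins alpha6 in hemidesmosomes of epithelia, stood at 32.2, 30.3, 22.3 and 21.0 CPM in mutants, against 62.8, 41.3, 87.5 and 57.8 CPM in siblings. It fell to 0.425 of the sibling level with no overlap (log2 fold change -1.24 ± 0.24 with an adjusted p of 0.00206), and kept its call under each of the 17 alternatives (leaving out single libraries, -1.41 to -1.03). Of the 8 epidermal marker genes tested with edgeR, among them TP63, krt4 and epcam, 0 passed, where 21.3% of all genes tested did. At an unadjusted p under 0.05 the count was 0 too. A list of 8 is too short to set 0 apart from that share. SEs were wide for krt5 (0.96), krt4 (0.76) and cldne (0.54). The summed level of the 8 markers was 3645 to 8720 CPM in mutant libraries, against 3666 to 9177 CPM in sibling libraries, most of it from krt4 and krt8. The part of epidermal transcripts in the fall of ITGB4 was not tested.

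Of the collagen receptor chains, only ITGA1 passed. ITGA1 (ENSDARG00000074316), the alpha1 chain of a collagen and laminin receptor found on mesenchyme and small vessels, had 35.2, 43.1, 57.0 and 82.3 CPM in mutants, against 95.9, 77.4, 123 and 116 CPM in siblings. Mutant replicate 4 lay above sibling replicate 2, and the other mutant libraries lay below all siblings. The fall was to 0.527 of the sibling level (log2 fold change -0.92 ± 0.24 with an adjusted p of 0.0139), with -1.20 to -0.77 on leaving out single libraries, and without mutant replicate 2 it did not pass (adjusted p = 0.0516). Markers of neural crest and mesenchyme fell in part as well. PDGFRA, PDGFRB, 1 identifier of PRRX1 and COL1A2, the last also an integrin ligand, fell among the 10 tested and 0 rose. The share called was 40%, against 21.3% of all genes tested. SOX10 (0.69 ± 0.51) lay above 0 without passing. The list summed to 201 to 236 CPM in mutant libraries, against 503 to 755 CPM in sibling libraries. Most of that sum came from COL1A2, with a mean of 141 ± 15.7 CPM in mutants, against 411 ± 66.1 CPM in siblings. The part of these markers in the fall of ITGA1 was not tested.

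None of the other collagen-binding chains passed. ITGA2 stood at a mean of 5.19 ± 2.17 CPM in mutants, against 7.93 ± 2.02 CPM in siblings (-0.61 ± 0.44), itga2.1 at a mean of 6.10 ± 1.42 CPM in mutants, against 4.07 ± 0.855 CPM in siblings (0.58 ± 0.46) and itga2.3 at a mean of 17.2 ± 6.15 CPM in mutants, against 10.5 ± 5.70 CPM in siblings (0.70 ± 0.39). ITGA10, known from cartilage, had a log2 fold change of 0.39 ± 0.35, and ITGA11 (ENSDARG00000036086), a collagen receptor chain of fibroblasts, of -0.93 ± 0.51. The second ITGA11 identifier held at most 2.2 CPM in any library and was not tested. ITGA8, ITGB6 and ITGB8, whose chains take part in RGD-binding receptors of epithelium, mesenchyme and neural tissue, had -0.25 ± 0.33, 0.37 ± 0.38 and 0.72 ± 0.78. The adjusted p of these 8 genes was 0.234 to 0.670, and the sign of ITGA8 turned without mutant replicate 4.

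Of the 6 leukocyte integrins tested, itgam.1, itgae.2 and itgb7 fell and 0 rose. That was 50% of the class, where 21.3% of all genes tested passed and 11.4% were lower. In bulk libraries, fewer cells of a type and less RNA per cell cannot be told apart. itgam.1 (ENSDARG00000002956), an alpha M chain of the complement receptor of neutrophils and macrophages, had 2.73, 4.16, 4.41 and 6.0 CPM in mutants, against 31.8, 23.6, 28.3 and 38.0 CPM in siblings. Its highest mutant value was well under its lowest sibling value. itgam.1 fell to 0.142 of the sibling level (log2 fold change -2.81 ± 0.31 with an adjusted p of 2.50e-05) and passed under all 17 alternatives, with -3.01 to -2.64 on leaving out single libraries. In the RefSeq annotation of another assembly, GRCz12tu, 21 of the 30 member symbols could be looked up. There itgam.1, ITGA9 and ITGB6 overlap long non-coding RNAs. itgae.1, itgae.2, ITGA1, ITGA10 and ITGBL1 overlap protein-coding genes, and itga6l overlaps both kinds. The strand setting of the counting is not given in the sources used here, so reads of these genes may be shared. itgam.2 had 0.938, 0.559, 2.97 and 1.81 CPM in mutants, against 3.60, 8.21, 4.65 and 1.28 CPM in siblings and did not pass (log2 fold change -1.50 ± 0.80 with an adjusted p of 0.220).

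The chains of the alpha E beta7 pair, which in mammals holds lymphocytes to epithelial cadherin, both fell. itgae.2 (ENSDARG00000057787) stood at 8.52, 4.64, 5.37 and 19.7 CPM in mutants, against 28.3, 32.5, 27.9 and 26.6 CPM in siblings, with mutant replicate 4 the highest of the mutants but still below every sibling. It passed under all 17 alternatives (log2 fold change -1.59 ± 0.39 with an adjusted p of 0.00919, -2.22 to -1.36 on leaving out single libraries). itgb7 (ENSDARG00000044318) had 2.66, 2.08, 9.11 and 8.47 CPM in mutants, against 16.2, 8.78, 16.9 and 16.8 CPM in siblings, so that mutant replicate 3 lay above sibling replicate 2. Its call was marginal (log2 fold change -1.40 ± 0.48 with an adjusted p of 0.0492) and was lost with RLE or upper-quartile factors, library totals, a stricter filter, or without any of 5 single libraries (-1.39 to -1.12).

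itgae.1 was listed at 0 counts in all 4 mutant libraries, where a count of 0 allows up to 0.234 to 0.288 CPM by counting error alone, and at 0.401, 0, 1.96 and 1.04 CPM in siblings, too few to test. itgb2 (ENSDARG00000016939), the beta2 chain shared by all beta2 integrins of leukocytes, stood at 16.6, 14.6, 23.1 and 29.3 CPM in mutants, against 28.6, 31.6, 28.6 and 32.3 CPM in siblings. Mutant replicate 4 reached the sibling range and the other mutant libraries lay below it. itgb2 did not pass (log2 fold change -0.54 ± 0.25 with an adjusted p of 0.152), though without mutant replicate 4 it did (-0.74, adjusted p = 0.0438).

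ITGA4 (ENSDARG00000103056), the alpha4 chain of the VCAM1 receptor on leukocytes and blood progenitors, was the only leukocyte-class gene with a positive log2 fold change. It had 64.7, 74.5, 109.8 and 75.9 CPM in mutants, against 46.4, 50.4, 65.2 and 73.8 CPM in siblings, with overlapping groups (log2 fold change 0.46 ± 0.21 with an adjusted p of 0.136), and passed under 0 of the 17 alternatives. In each group the range of values was wider than the difference between the group means.

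Leukocyte markers fell beside these integrins. Of 31 marker identifiers, 20 were tested, of which 14 fell and 0 rose, with a median log2 fold change of -1.62. The share called was 70%, against 21.3% of all genes tested. Of the 31, 4 MFAP4 family identifiers were at 0 in every mutant library and 1 in every sibling library. Their summed level was 221 to 458 CPM in mutant libraries, against 1015 to 1329 CPM in sibling libraries. ptprc, the pan-leukocyte phosphatase CD45, had 2.73, 5.67, 14.7 and 27.0 CPM in mutants, against 60.2, 92.2, 53.4 and 62.3 CPM in siblings (log2 fold change -2.42 ± 0.58 with an adjusted p of 0.0135), and without the filter on low counts it did not pass. The neutrophil lysozyme gene lyz (-4.01 ± 0.55), the macrophage receptor gene csf1ra (-2.21 ± 0.29), srgn (-2.20 ± 0.31), CORO1A (-1.59 ± 0.27), LCP1 (-1.29 ± 0.23) and mfap4.8 (-1.79 ± 0.34) fell as well. lck, of T cells, had too few counts to be tested. Its values were 0.625, 0.56, 0 and 0 CPM in mutants, against 0.501, 3.34, 0.408 and 1.69 CPM in siblings, with overlap. Of the 3 identifiers of the macrophage gene MPEG1, ENSDARG00000055290 (-1.60 ± 0.73) and ENSDARG00000043093 (-0.40 ± 0.70) did not pass. ENSDARG00000078569 had too few counts to be tested, with 1.25, 2.16, 0 and 1.40 CPM in mutants, against 0.200, 0, 0.163 and 0 CPM in siblings. Both ptprc and the summed markers were lowest in mutant replicate 1 and highest, among mutants, in replicate 4, as was itgam.1. kdrl, ITGA5 and ITGA9 had these extremes too. Among mutants, itgae.2 and itgb2 were also highest in replicate 4 but lowest in replicate 2. itgb7 was lowest in mutant replicate 2 and highest in mutant replicate 3. csf1ra and lyz were highest among mutants in replicate 2, lyz with only 5, 11, 7 and 6 counts in mutant replicates 1 to 4. The part of the leukocyte markers in the fall of the integrins was not tested.

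**Figure D3:**
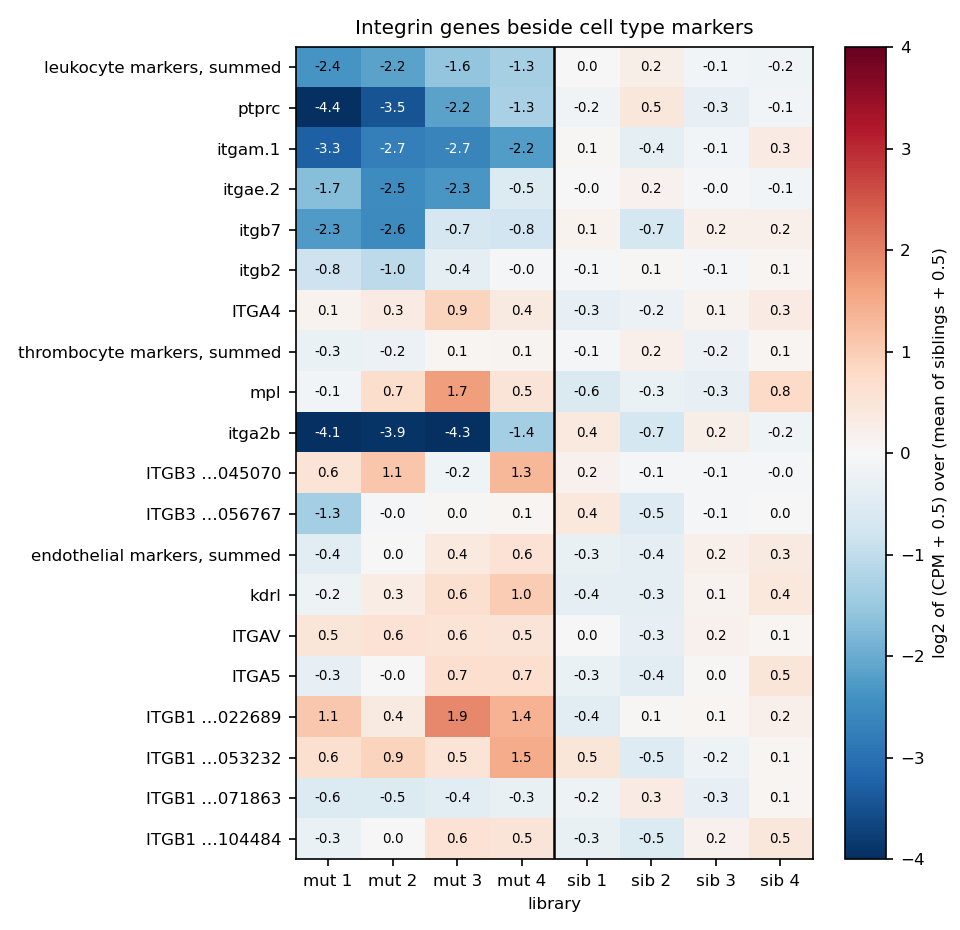
Log2 of (CPM + 0.5) over the mean of the siblings (+ 0.5) in each library (columns, mutants left of siblings) for integrin genes and for marker genes or summed marker lists (rows), from blue (lower) to red (higher). The leukocyte markers, itgam.1 and itgae.2 are blue in each mutant library, ITGA4 is not, and itga2b is lowest in mutant replicates 1 to 3 while the summed thrombocyte markers, carried mostly by f13a1b and GFI1B, stay near 0.

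itga2b showed the lowest fitted fold change among the integrins tested. itga2b (ENSDARG00000018687), the alpha IIb chain, had 0.0781, 0.160, 0 and 3.37 CPM in mutants, against 12.5, 5.63, 11.2 and 8.27 CPM in siblings, which in mutants came from 1, 2, 0 and 41 counts. The groups did not overlap, and mutant replicate 4 held almost all mutant counts. The log2 fold change was -3.36 ± 1.05 (adjusted p of 0.0362). Without mutant replicate 4 it was -6.65 (adjusted p = 5.31e-05), a fitted value that rests on near-empty libraries, while leaving out any other single library or the filter on low counts ended the call (adjusted p up to 0.0934).

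The partner chain of alpha IIb did not pass in either direction. ITGB3 encodes the beta3 chain, which also pairs with alpha v on endothelium, and its identifier ENSDARG00000045070 had 14.3, 21.2, 8.44 and 24.7 CPM in mutants, against 10.9, 9.06, 8.97 and 9.24 CPM in siblings (log2 fold change 0.85 ± 0.34 with an adjusted p of 0.0931). It passed upward without mutant replicate 3 (1.07). The identifier ENSDARG00000056767 had 1.02, 3.28, 3.45 and 3.62 CPM in mutants, against 4.71, 2.19, 3.18 and 3.37 CPM in siblings (log2 fold change -0.24 ± 0.68 with an adjusted p of 0.853), and its sign turned without mutant replicate 1. Of the 13 identifiers of thrombocyte markers, 10 were tested with edgeR and 0 passed, where 21.3% of all genes tested did. A list of 10 is too short to set 0 apart from that share. SEs were wide for gp9 (1.13), F13A1 (ENSDARG00000045453, 1.19) and vwf (0.62). Summed over the 13 identifiers, these markers stood at 553 to 707 CPM in mutant libraries, against 556 to 760 CPM in sibling libraries. Their median log2 fold change was -0.30, with 7 of the 10 below 0. Most of the sum came from f13a1b, with a mean of 393 ± 92.2 CPM in mutants, against 390.5 ± 33.5 CPM in siblings, and GFI1B, with a mean of 153 ± 47.5 CPM in mutants, against 178 ± 75.9 CPM in siblings. At an unadjusted p under 0.05 the count was 1, from FERMT3 (ENSDARG00000079267). mpl, the thrombopoietin receptor gene, had 7.82, 14.0, 27.8 and 12.2 CPM in mutants, against 5.51, 6.87, 6.61 and 14.8 CPM in siblings (log2 fold change 0.87 ± 0.43 with an adjusted p of 0.178), and gp9, of the von Willebrand factor receptor, at most 2.73 CPM in any library, with 0 in mutant replicate 3. rgs18, thpo and 1 identifier of F13A1 had too few counts to be tested, and rgs18 stood at 0, 0.240, 0.192 and 0.0822 CPM in mutants, against 1.5, 0.382, 0.571 and 1.28 CPM in siblings, without overlap. The count of passing thrombocyte markers was 0 with DESeq2 and with limma-voom as well. The part of thrombocyte transcripts in the fall of itga2b was not tested.

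Paralogues of one subunit were also set against each other within libraries, which does not depend on the scaling between libraries. This comparison was added after the values were seen and covers 13 pairs. Of these, 6 had log2 ratios that did not overlap between the groups. Among single genes, 26.7% of all tested did not overlap, and no such share was found for ratios. Pairs that share an identifier are also not independent. The smallest p that an exact two-sided permutation test of 4 against 4 can give is 0.0286. After Benjamini-Hochberg adjustment over the 13 pairs each of the 6 stood at 0.0619 by that exact test, so 0 passed. With 13 pairs, a fully separated pair could not pass on its own, so the lack of a pass says little about each pair. The log2 ratio of ITGA6 to itga6b was -0.94 ± 0.65 in mutants and 0.75 ± 0.72 in siblings (mean ± SD over 4 libraries). That of ITGB1 identifier ENSDARG00000022689 to ENSDARG00000071863 was -3.29 ± 0.61 in mutants and -4.98 ± 0.33 in siblings, and that of ENSDARG00000053232 to ENSDARG00000071863 was -1.99 ± 0.35 and -3.38 ± 0.64. ITGA3 over itga3a was 4.55 ± 2.4 in mutants and 2.03 ± 0.72 in siblings. That mutant mean was raised by replicate 4 (8.12), where itga3a held 2 counts. The other mutant libraries lay at 2.90 to 3.72, and the siblings at 1.07 to 2.64. ITGA2 over itga2.1 and over itga2.3 was lower in mutants by 1.25 and 1.42 on the log2 scale.

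**Figure D4:**
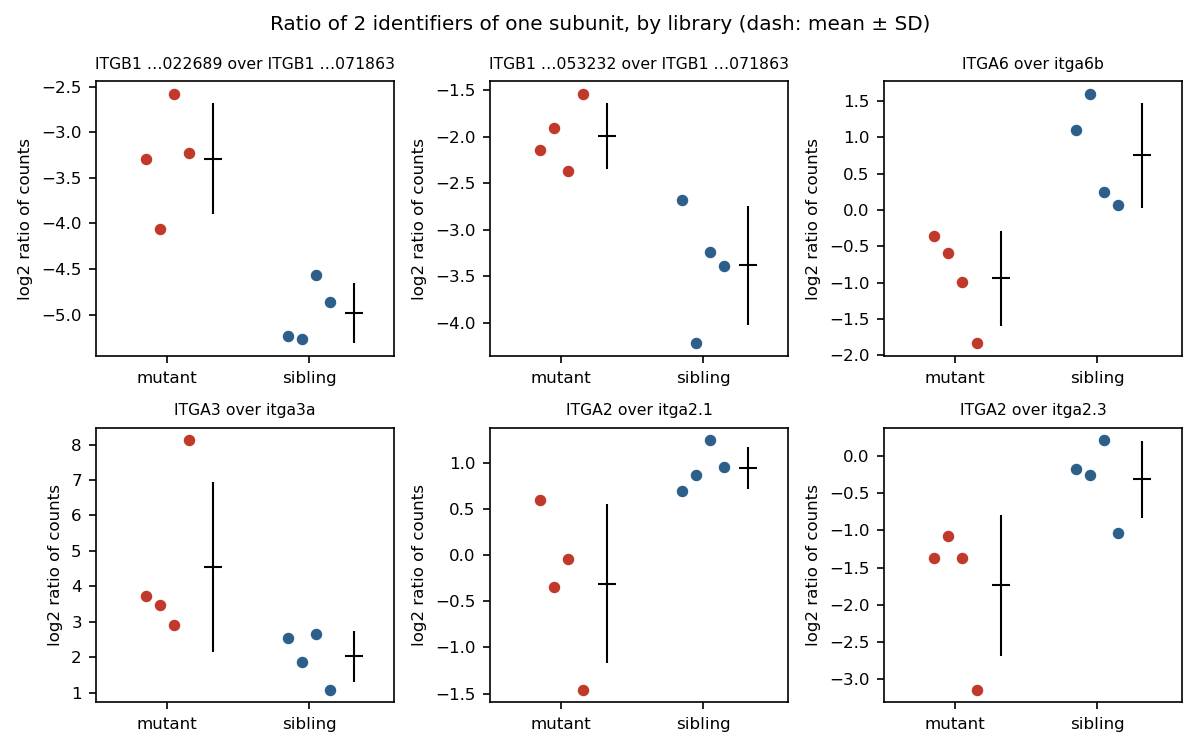
Log2 ratio of the counts of 2 identifiers of one subunit (y axis) in each mutant library (red, left) and sibling library (blue, right) for the 6 pairs without overlap; the dash with its bar is the mean ± SD. In ITGA6 over itga6b, mutants lie between -1.84 and -0.36 and siblings between 0.06 and 1.6.

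Inside the cell, integrins are switched on by talin and kindlin and tied to actin by a set of adaptors. Of 53 genes of activators and adaptors tested, 6 rose, 10 fell and 37 did not pass (median log2 fold change 0.01). The share called was 30.2%, where 21.3% of all genes tested passed (9.92% higher and 11.4% lower). The endocytic adaptor gene DAB2 encodes a protein that binds beta tails. Its identifier ENSDARG00000031761 did not pass (0.10 ± 0.23), with a mean of 296 ± 102 CPM in mutants, against 277 ± 51.0 CPM in siblings. The identifier ENSDARG00000053091 rose, with 482, 460.2, 526 and 461 CPM in mutants, against 145, 148, 160.4 and 222 CPM in siblings (1.51 ± 0.16). CD151, a tetraspanin that binds laminin receptors, rose as well (2.01 ± 0.32, with 33.0 to 54.2 CPM in the mutants and 5.34 to 16.1 CPM in the siblings), as did rap1aa (0.97 ± 0.17), which encodes a small GTPase that drives integrin activation. TLN2, of talin 2, had 40.0, 37.2, 47.8 and 33.9 CPM in mutants, against 106, 104, 98.8 and 95.0 CPM in siblings (-1.34 ± 0.16). APBB1IP, which links Rap1 to talin and is known from leukocytes, fell (-1.70 ± 0.26), and so did numbl (-1.53 ± 0.29). The calls of these 6 held under all 17 alternatives.

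The remaining calls of that list, named after their values were seen, were higher for rap1ab and rap1b and for the kindlin gene FERMT1, and lower for lims1, tns2a, TNS1, ACTN1, ZYX, flna and PARVB. Of the 17 alternatives, the call of ZYX was lost under 1, those of flna and PARVB under 7 each, that of rap1b under 8 and that of FERMT1 under 10. TLN1, the main talin gene, had a mean of 409 ± 73.6 CPM in mutants, against 448 ± 74.6 CPM in siblings (log2 fold change -0.13 ± 0.16 with an adjusted p of 0.634). The kindlin 3 gene FERMT3, used by leukocytes and thrombocytes, had 2 identifiers that did not pass, with -0.88 ± 0.39 at ENSDARG00000079267 and -0.09 ± 0.40 at ENSDARG00000030938. ENSDARG00000079267 passed, at -1.20, without mutant replicate 4, and the sign of ENSDARG00000030938 turned on leaving out mutant replicate 1 or 2 or sibling replicate 1. ITGB1BP1, an inhibitor of beta1 activation, stood at a mean of 18.7 ± 2.37 CPM in mutants, against 28.0 ± 5.10 CPM in siblings and did not pass (log2 fold change -0.58 ± 0.23 with an adjusted p of 0.0917), although its groups did not overlap.

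Of 36 genes of adhesion kinases and signalling, 10 rose, 6 fell and 20 did not pass (median 0.14). The share called was 44.4%, against 21.3% of all genes tested. PTK2 (ENSDARG00000100456), of focal adhesion kinase, had 127, 100.5, 118 and 139 CPM in mutants, against 250.2, 286, 203 and 188 CPM in siblings (-0.94 ± 0.17), while its paralogue ptk2ab did not pass (0.12 ± 0.19). The related PTK2B changed in both directions, with -2.07 ± 0.36 at ENSDARG00000022841 and 1.08 ± 0.33 at ENSDARG00000039577. The second of these calls was lost under 6 alternatives. DOCK1, an exchange factor for Rac, fell (-0.87 ± 0.15), and GIT1 (0.81 ± 0.17), CRK (0.92 ± 0.20) and ARHGAP35 (0.67 ± 0.15) rose. Without both libraries that stood apart, 5 genes of this list rose in place of 10.

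**Figure D5:**
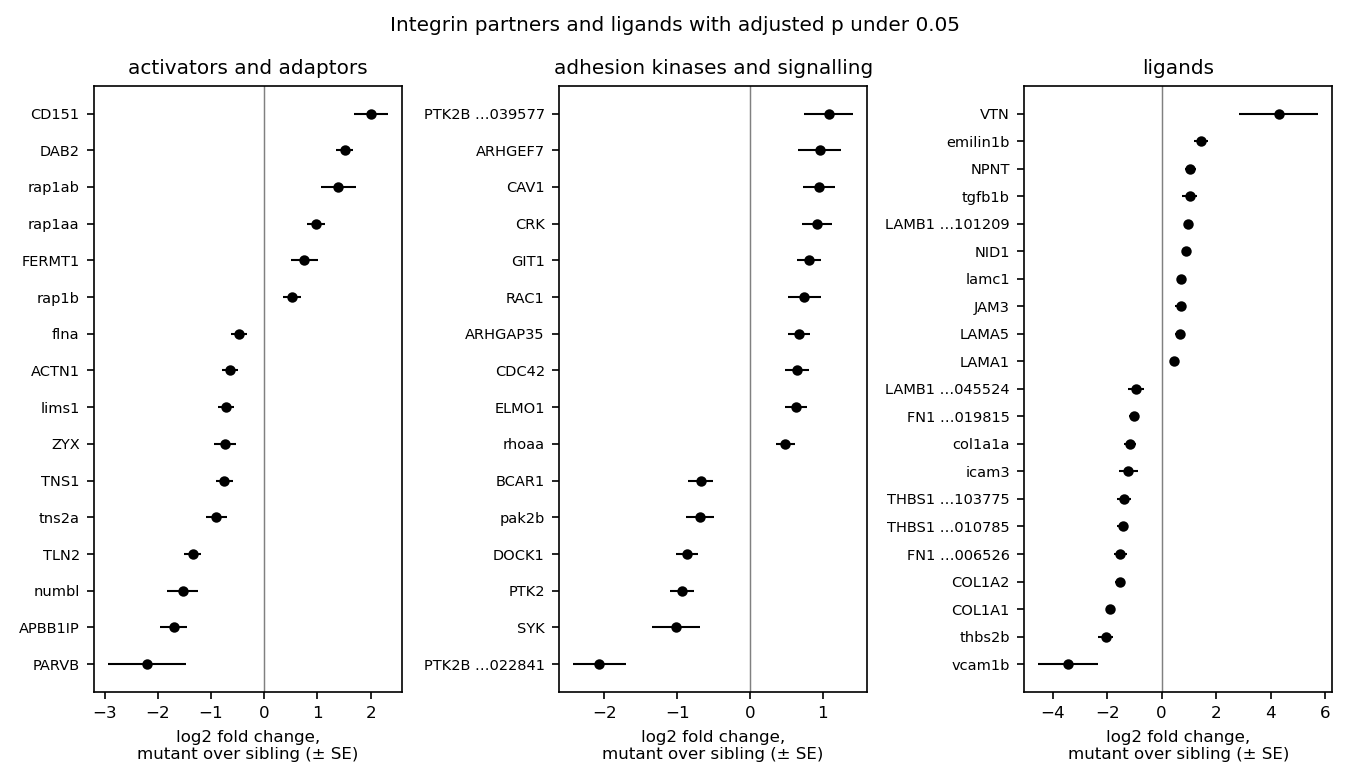
Log2 fold change of mutant over sibling (x axes, with SE) for the genes with an adjusted p under 0.05 in 3 lists: 16 activators and adaptors, 16 kinases and signalling genes and 21 ligands. In each list genes lie on both sides of 0, with 4 of 5 laminin genes above it and fibronectin, collagen I and thrombospondin genes below it among the ligands.

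Among the ligands, 10 of 50 genes rose, 11 fell and 29 did not pass (median -0.15). The share called was 42%, against 21.3% of all genes tested. Fibronectin, the main RGD ligand, fell at both identifiers of FN1, with 95.2, 127, 66.6 and 72.3 CPM in mutants, against 175, 251, 316 and 289 CPM in siblings at ENSDARG00000006526 (-1.51 ± 0.22) and -1.03 ± 0.19 at ENSDARG00000019815. Collagen I genes fell as well: the log2 fold change of COL1A1 was -1.88 ± 0.17, that of COL1A2 -1.54 ± 0.15 and that of col1a1a -1.16 ± 0.21. The thrombospondin genes thbs2b (-2.05 ± 0.28) and THBS1 (-1.43 ± 0.19 at ENSDARG00000010785, -1.38 ± 0.24 at ENSDARG00000103775) did the same. COL1A2 is also on the list of 10 neural crest and mesenchyme markers, of which 4 fell and 6 did not pass. That is 40% called, against 21.3% of all genes tested. PDGFRA (-2.68 ± 0.31) and PDGFRB (-2.36 ± 0.29) were among those that fell, while SOX10 (0.69 ± 0.51) lay above 0 without passing. The part of these markers in the falls of the ligands was not tested.

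Laminins and nidogen build the basement membrane. Among 9 laminin genes, all tested, 4 rose and 1 fell, where 9.92% of all genes tested were higher and 11.4% lower. LAMB1 (ENSDARG00000101209) had 666, 625, 592 and 679 CPM in mutants, against 285, 278, 353 and 400.4 CPM in siblings (0.96 ± 0.14). lamc1 (0.72 ± 0.16), LAMA5 (0.67 ± 0.17), LAMA1 (0.47 ± 0.14) and NID1 (ENSDARG00000103129, 0.91 ± 0.17) rose too, the call of LAMA1 being lost under 7 alternatives and that of LAMA5 without both libraries that stood apart. A second LAMB1 identifier, ENSDARG00000045524, fell (-0.94 ± 0.30), a call lost under 7 alternatives, and lama2, lama4, LAMB2 and lamb2l did not pass (-0.97 ± 0.36, -0.40 ± 0.19, -0.89 ± 0.35 and -0.31 ± 0.35). Nor did the second NID1 identifier, ENSDARG00000068710 (0.07 ± 0.37), COL4A1 (-0.45 ± 0.19), COL4A2 (-0.05 ± 0.20) or HSPG2 (-0.12 ± 0.16). vcam1b, of the adhesion molecule that alpha4 and alpha9 integrins bind, had 1.95, 0.400, 0 and 0 CPM in mutants, against 6.61, 2.38, 9.71 and 7.39 CPM in siblings (log2 fold change -3.43 ± 1.10 with an adjusted p of 0.0374). The call of vcam1b was lost under 5 alternatives. Higher in mutants too were emilin1b (1.44 ± 0.26), NPNT (1.05 ± 0.21) and tgfb1b (1.03 ± 0.27). So were JAM3 (ENSDARG00000061794, 0.70 ± 0.20) and VTN (ENSDARG00000055388, 4.30 ± 1.44), while icam3 was lower (-1.23 ± 0.36). Calls of tgfb1b, JAM3 and icam3 were lost under 2, 5 and 4 alternatives, and that of VTN under 7 of 14. VTN had 11, 32, 49 and 23 counts in mutants, against 4, 0, 1 and 0 in siblings. Fibronectin apart, ligands beyond the 6 with the smallest p were named here after their values were seen.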

How the data were processed

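RNA of kdrl-positive cells from 4 sf3b1 mutant and 4 sibling samples was extracted with a column kit, depleted of ribosomal RNA and made into stranded libraries, per the labels' protocols. The submitters' processing notes name STAR 2.4.2a, Trim Galore, Cufflinks 2.2.1, Picard and the build GRCz10. How reads were assigned to genes, with which annotation and strand rule, is not given there or in the labels. As deposited by the authors, the table holds whole-number counts per Ensembl gene without normalization. Symbols came from a table of gene names, which matched 29178 of 31901 identifiers.

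From these counts, genes were kept by edgeR's filterByExpr (minimum count 10, minimum total 15), scaled by TMM and tested with edgeR 4.0.16's robust quasi-likelihood fit (R 4.3.3) on all 8 libraries without covariates, with Benjamini-Hochberg adjustment over 18289 genes and a threshold of 0.05. SEs were derived from the fold change and its F value. Alternatives were other scaling, other filters, DESeq2 1.42.0, limma-voom (limma 3.58.1), a replicate block, and libraries left out. The fit was tested on simulated data. Counts of 3 served as the floor of a library, which covers counting error only. Gene lengths were not used, so levels are not compared between genes. Replicates of a group differed by more than sampling noise.

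Values in every library are given for each member that passed, for the most abundant member of each class, and for itga2b and itgb2, and further members were added. From each partner or marker list up to 6 genes with the smallest p among those that passed were named, with others fixed by name or added. The members and lists were chosen with earlier results of these data known. Protein and promoter sequences were not used here.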

Additional observations from a re-analysis of the deposited data

Results flagged for a closer look

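Of 62 groups of 4 libraries (31 integrin genes in each of mutants and siblings), 5 held a library far from the other 3, where chance alone flags about 5% of groups. In mutants, ITGB3 ENSDARG00000056767 stood at 1.02 CPM in replicate 1, below the others, and itga2b at 3.37 CPM in replicate 4, above the others. In siblings, itga3a stood at 15.02 CPM in replicate 4 and ITGB3 ENSDARG00000045070 at 10.9 CPM in replicate 1, each above the others, and itgb7 at 8.78 CPM in replicate 2, below them.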

How the results depend on the processing

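Of the 10 integrin genes that passed, ITGB4, itgam.1 and itgae.2 passed under all 17 alternatives, and the other 7 lost the call on leaving out at least 1 single library. The count of integrin genes higher in mutants was 3, and was 5 with upper-quartile factors, with no filter and with DESeq2, 1 without both mutant replicate 4 and sibling replicate 2, and 1 to 4 on leaving out single libraries (1 without sibling replicate 2). The count lower was 7, and 4 to 7 on leaving out single libraries (4 when mutant replicate 2 or either of sibling replicates 1 and 4 was left out). The median of the class of remaining integrins, 0.06, was -0.25 with no filter and -0.34 to 0.074 on leaving out single libraries, and that of the thrombocyte class ran from -0.42 to 0.036. The thrombocyte median was -3.36 with ITGB3 counted as endothelial, since itga2b is then its only gene. Without both mutant replicate 4 and sibling replicate 2, 5 kinase and signalling genes rose, where 10 did with all libraries. The cause of these shifts was not tested.

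Among single genes and ratios, signs turned only for some that did not pass. cdh5 (-0.05) was 0.022 with upper-quartile factors and -0.20 to 0.12 on leaving out single libraries. On leaving out single libraries, ITGB3 ENSDARG00000056767 ran from -0.42 to 0.036, ITGA8 from -0.41 to 0.0027 and FERMT3 ENSDARG00000030938 from -0.59 to 0.19. Without both mutant replicate 4 and sibling replicate 2, ITGB1 ENSDARG00000104484 was at -0.0015 and ITGA9 at -0.13. The log2 ratio, mutant minus sibling, of ITGB1 ENSDARG00000022689 over ENSDARG00000053232 ran from -0.055 to 0.59, and that of itga2.1 over itga2.3 from -0.42 to 0.0082.

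Same-numbered libraries did not deviate together (correlations of -0.0280 to 0.0915, and 0 of 4 best matched by their own number). Whether they shared a clutch or preparation is not stated in the labels, and 4 pairs are too few to decide it. With the replicate number as a block, 4 integrin genes were higher and 7 lower; the added one was itga6b (log2 fold change 0.95, edgeR adjusted p = 0.0216). Among the other genes followed, kdrl passed with the block (0.47), as it did without mutant replicate 1 (0.68). FERMT1, PTK2B ENSDARG00000039577 and VTN ENSDARG00000055388, each called higher with all libraries and no block, lost their calls with the block. DESeq2 and limma-voom were not run for class medians. The median of all genes lay within 0.0667 of 0 on the log2 scale under each setting. Genes under a few CPM, such as itga2b in mutants and itgae.1, rest on few counts, and their fold changes are the least certain.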

Other observations

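Erythroid, neural and muscle marker lists were summed in the same libraries. Of 9 erythroid markers tested, 7 fell and 0 rose in mutants, with the smallest p for hbae1.3 (-2.29 ± 0.25), hbae1.2 (-2.27 ± 0.27), hbae1.1 (-2.39 ± 0.33), SLC4A1 (-1.39 ± 0.21), hbae3 (-1.53 ± 0.23) and klf1 (-1.36 ± 0.27), given as log2 fold changes of mutant over sibling with their SE. The regulators gata1a (0.74 ± 0.29) and TAL1 (0.56 ± 0.22) lay above 0 and did not pass. The list summed to 2140 to 3197 CPM in mutant libraries, against 4414 to 8896 CPM in sibling libraries. Most of that sum came from hbae3, with 1287 to 2225 CPM in mutant libraries, against 3002 to 6481 CPM in sibling libraries. Of 8 neural markers, ELAVL3 (-2.69 ± 0.22) and SOX2 (-1.60 ± 0.31) fell and 0 rose, with 199 to 245 CPM in mutant libraries, against 557 to 1062 CPM in sibling libraries. SOX3 (0.65 ± 0.27) was the 1 neural marker above 0 and did not pass, and neurog1 stood at -0.01 ± 1.17. Of 11 muscle markers, TNNT3 (ENSDARG00000068457, 0.99 ± 0.22), UNC45B (1.43 ± 0.36) and RYR1 (ENSDARG00000011422, 1.37 ± 0.43) rose and 0 fell. Their paralogues TNNT3 ENSDARG00000030270 (-0.41 ± 0.45) and RYR1 ENSDARG00000023797 (0.24 ± 0.78) did not pass. The muscle list summed to 204 to 479 CPM in mutant libraries, against 142 to 229 CPM in sibling libraries. These are the levels of transcripts of other cell types in libraries of kdrl-positive cells, and their part in any integrin result was not tested. The share called was 77.8% of erythroid, 25% of neural and 27.3% of muscle markers tested, against 21.3% of all genes tested.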
